A study of Mus musculus with 6 samples.

Results

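The 44 genes described here act in G2 and mitosis: mitotic cyclins and kinases, kinetochore and spindle checkpoint proteins, spindle motors, the enzymes of anaphase and the machinery of cytokinesis. They were chosen by name from a list of such genes, with earlier results of these data known, and all 44 of 44 were found by symbol among the 24959 genes of the deposited count table. All 44 passed the filter on low counts, as did 15930 genes in all. The libraries came from bulk RNA of mouse dental epithelial cells at postnatal day 0. They were 3 controls, labelled WT, and 3 Pkm conditional knockouts, labelled cKO and PKM knockout and called cKO libraries or knockouts here. Pkm encodes the M-type pyruvate kinases, the enzymes of the final, ATP-forming step of glycolysis. The labels call the libraries biological replicates. The Cre driver, the deleted exon, the strain, the sex, the number of animals per library and whether controls carried Cre or a floxed allele were not given in the sources used here. By its labels, the series sets dental epithelium with Pkm lost beside its control.

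Entry into mitosis depends on cyclin B bound to the kinase Cdk1, which Cdc25 phosphatases switch on. Polo and Aurora kinases then build the spindle, the checkpoint proteins hold the anaphase-promoting complex in check until every kinetochore is attached, and Cdc20 starts the destruction of securin and cyclin B that separates sister chromatids. Transcripts of these genes accumulate from late S phase to mitosis and are low in cells that have left the cycle, as secretory ameloblasts have. In the tooth, dividing epithelial cells lie mainly in the cervical loops and the inner enamel epithelium.

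Nearly all of these transcripts had higher mean levels in the Pkm cKO libraries, and none passed the threshold over all genes. Of the 44 genes, 43 had a log2 fold change (cKO minus control) above 0, where 50.8% of all tested genes did. Their median was 0.64, a ratio of 1.55, beside a median of 0.01 over all tested genes. The single genes ranged from Pttg1 at -0.09 to Plk1 at 1.14. edgeR's quasi-likelihood test, adjusted by the Benjamini-Hochberg method over all tested genes, called 0 of the 44 at an adjusted p under 0.05, and 0.345% of all tested genes were called higher. The lowest adjusted p among them was 0.0722, of Kif2c. At an unadjusted p under 0.05, 27 of the 44 (61.4%) were higher in the cKO group, against 9.57% of all tested genes. That count depended on single libraries: by edgeR it was 9 without control replicate 1 (9.29% of all genes in the same fit, in either direction), 17 without control replicate 2 (10.8%) and 30 without control replicate 3 (15.2%). It was 41 without Pkm cKO replicate 1 (22.2%), 16 without Pkm cKO replicate 2 (16.5%) and 14 without Pkm cKO replicate 3 (18.4%), beside 17.5% with all 6 libraries. Every cKO library exceeded every control for 16 of the 44 (36.4%), against 11.2% of all tested genes.

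**Figure D1:**
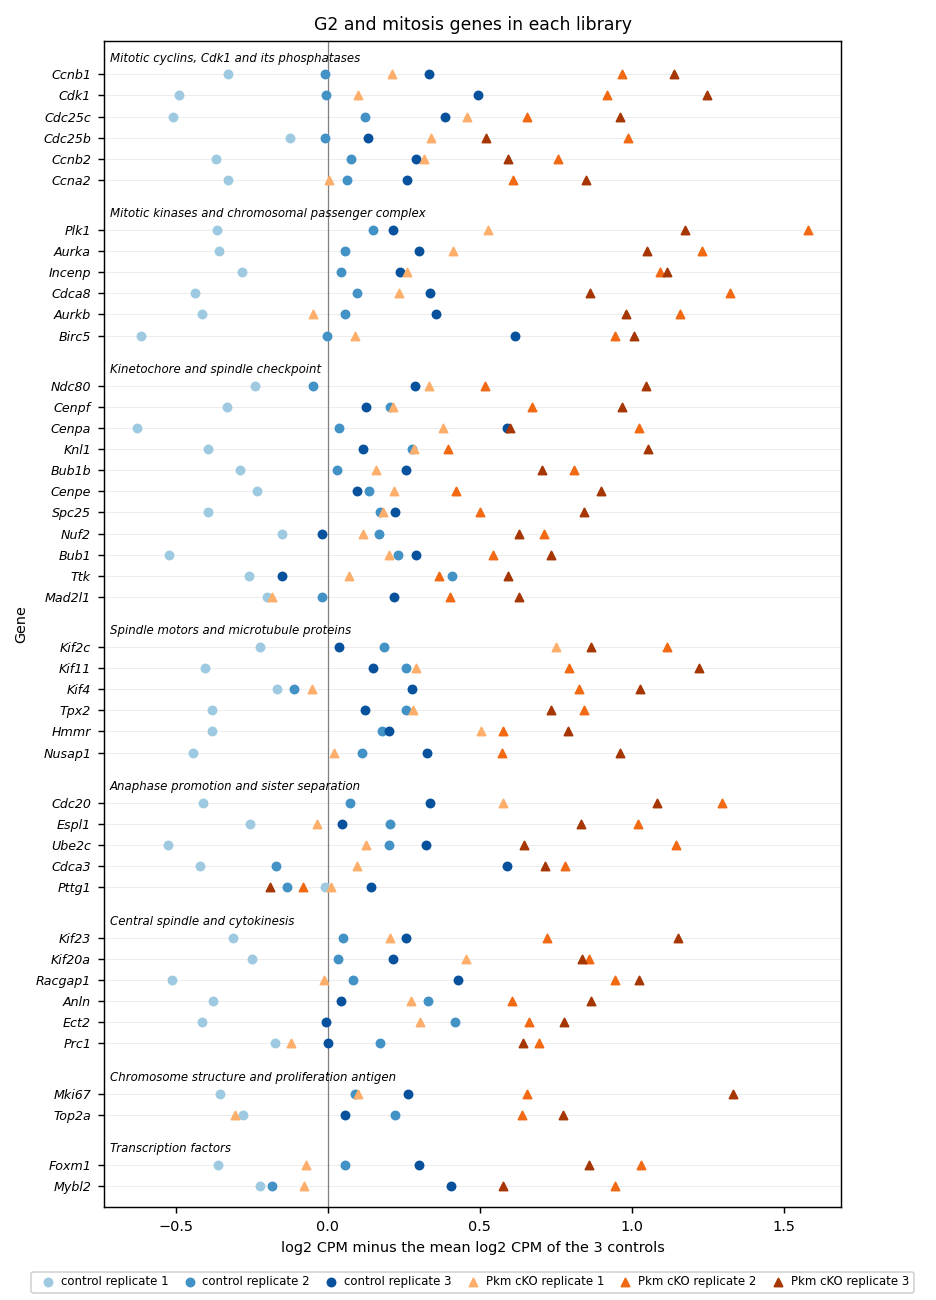
Each row is 1 of the 44 genes, grouped by role, and each symbol is 1 library (circles, 3 controls; triangles, 3 Pkm cKO). The x axis gives log2 CPM minus the mean log2 CPM of the 3 controls. Pkm cKO replicates 2 and 3 lie to the right of all controls for 42 genes, while Pkm cKO replicate 1 lies among the controls for most.

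The 3 cKO libraries were not alike. In CPM, read counts scaled to TMM-adjusted library size, the 44 genes summed to 1265, 1715 and 1930 CPM in control replicates 1 to 3 and to 1789, 2894 and 3067 CPM in Pkm cKO replicates 1 to 3. Pkm cKO replicate 1 thus stood between control replicates 2 and 3, and the groups overlapped. Replicates 2 and 3 of the cKO group both exceeded every control for 42 of the 44 genes (95.5%), against 19.3% of all tested genes. Pttg1 and Ttk were the 2 exceptions. Pkm cKO replicate 1 exceeded every control for 16 genes and was the lowest of the cKO libraries for 43. Among the controls, replicate 1 was the lowest of all 6 libraries for 42 genes, and replicate 3 was the highest control for 31. In bulk RNA a larger share of dividing cells and more RNA per dividing cell cannot be told apart.

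Leaving out Pkm cKO replicate 1 changed the calls. With the other 5 libraries edgeR called 13 of the 44 genes (29.5%), all higher, against 1.94% of 16330 tested genes called higher, and the median of the 44 was 0.77. The 13 were Plk1, Incenp, Cdc20, Ccnb1, Aurka, Kif2c, Foxm1, Aurkb, Cdca8, Kif4, Espl1, Kif11 and Kif20a. Their adjusted p-values ran from 0.0231 (Plk1, edgeR) to 0.0474 (Kif20a, edgeR). Leaving out any other library gave 0 calls among the 44, with medians from 0.44 (without control replicate 1) to 0.77 (without control replicate 3). With all 6 libraries DESeq2 called 8 of the 44 (18.2%), against 4.32% of all tested genes called higher. Without the filter on low counts 6 (13.6%) were called, against 1.21% of 24959 genes called higher. With the replicate number as a block, though the labels do not say that a number marks a pair, 13 (29.5%) were called, against 2.25%. Limma-voom called 0 of the 44, beside 0.0126% of all tested genes in either direction. By limma-voom 24 of the 44 had an unadjusted p under 0.05, beside 17.2% of all tested genes in either direction.

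Total counts ran from 30588350 to 39415700 per library. The 44 genes took 0.122% to 0.189% of them in controls and 0.181% to 0.316% in cKO libraries, and no member had fewer than 247 reads in a library. Pkm itself fell in the cKO group, from 1172 ± 117 CPM down to 351 ± 43.0 CPM as mean ± SD over 3 libraries each. Its log2 fold change was -1.74 with an SE of 0.159 (adjusted p 0.0109 by edgeR), and it lost its call without control replicate 1, 2 or 3 (edgeR adjusted p 0.0792, 0.0600 and 0.0790). Over all genes 55 were called higher and 33 lower, or 57 and 18 with upper-quartile scaling. Epithelial markers were present in all libraries: the 14 listed genes, led by Krt5, summed to 18444 to 21366 CPM for controls and to 14692 to 16045 CPM for knockouts, with 10 of 14 below 0. Markers of other cells moved as well. Of 18 mesenchyme and fibroblast genes, led by Col1a1, 16 were above 0 on the log2 scale. Over the 18 the median was 0.77. For 12 of them the groups did not overlap, all cKO libraries being higher, against 11.2% of all tested genes. By edgeR 12 were higher at an unadjusted p under 0.05, against 9.57% of all tested genes. The sums, 21010 to 32524 CPM for controls and 20545 to 41816 CPM for knockouts, overlapped. Col1a1 and Col1a2, the most abundant of the list, were the 2 genes below 0 (-0.09 and -0.14). Of 14 immune cell genes, 13 were above 0 (median 1.18), with sums of 87.0 to 95.1 CPM against 139 to 239.8 CPM. The 10 enamel genes, products of ameloblasts led by Amelx, summed to 10887 to 25546 CPM for controls and 465 to 5724 CPM for knockouts, with 9 of 10 below 0. Control replicate 1, with the highest enamel sum, had the lowest sum of G2 and mitosis genes, and Pkm cKO replicates 2 and 3, with the lowest enamel sums, had the highest. Pkm cKO replicate 1 broke this order against control replicate 3. Its enamel sum was lower (5724 against 10887 CPM), and so was its G2 and mitosis sum (1789 against 1930 CPM). A relation between the 2 sums was not tested. The 10 skeletal muscle genes, led by Acta1, summed to 5.34 to 7.05 CPM for controls and to 91.4, 21.4 and 3584 CPM in Pkm cKO replicates 1 to 3. The odontoblast genes, led by Dspp, summed to 2507 to 5401 CPM for controls and 435 to 3785 CPM for knockouts, which overlapped. Erythroid genes were below 0 for 6 of 7, with sums of 576 to 807 CPM for controls and 269 to 357 CPM for knockouts. By edgeR's adjusted p 3 erythroid genes and 1 enamel gene were called lower and 1 immune gene higher. The epithelial, mesenchyme, odontoblast and muscle lists had 0 calls, and 0.552% of all tested genes were called in either direction. No listed marker was at 0 in all 6 libraries. The part of these other cells in the levels of the mitotic genes was not tested. Without Pkm cKO replicate 3, which held most of the muscle signal, the median of the 44 was 0.50 and 43 stayed above 0. In that fit 0 were called by edgeR's adjusted p, beside 0.77% of all genes in either direction. Pkm cKO replicates 1 and 2, kept there, still had muscle sums of 91.4 and 21.4 CPM, against 5.34 to 7.05 CPM for controls. The fit therefore does not set the muscle signal apart.

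The promoters of these genes share short sequence elements known from work on the cell cycle. Late cell cycle genes are typically held silent in resting cells by the DREAM complex, which binds the cell cycle homology region (CHR), and are switched on in G2 through the same element by the MuvB core with B-Myb (Mybl2) and FoxM1. The trimeric factor NF-Y activates many of them through CCAAT boxes. RefSeq promoter windows (GRCm38.p6, 250 bases before to 50 after the start) were found for 37 of the 44 genes, as 39 windows. Windows were not used here for Ccna2, Cdc25c, Aurkb, Incenp, Tpx2, Kif20a and Foxm1. The windows of the mitotic cyclins, their kinase, Plk1 and Cdc20 are shown because they run mitotic entry and exit, and Plk1 and Cdc20 had the highest fold changes of the 44, and that of Pttg1, picked after its values were seen, because it was the single gene with a log2 fold change below 0. Each runs 5′ to 3′ on the strand of the gene from 150 bases before the start to 30 after it, 180 bases in all. Capitals mark TTTGAA (the main CHR form), TTTAAA (another CHR form) and CCAAT, on either strand, so that ATTGG is a CCAAT box read on the other strand. None of these 3 motifs overlapped another in the stretches shown.
Ccnb1 (chr13:100786457-100786636, minus strand): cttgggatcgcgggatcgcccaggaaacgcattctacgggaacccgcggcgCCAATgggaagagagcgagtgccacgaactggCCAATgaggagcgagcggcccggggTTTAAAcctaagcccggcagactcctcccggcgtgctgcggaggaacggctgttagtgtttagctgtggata
Ccnb2 (chr9:70421525-70421704, minus strand): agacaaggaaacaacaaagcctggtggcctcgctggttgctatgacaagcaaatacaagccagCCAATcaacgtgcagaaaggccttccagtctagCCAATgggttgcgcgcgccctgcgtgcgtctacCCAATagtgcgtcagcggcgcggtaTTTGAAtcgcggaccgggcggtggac
Cdk1 (chr10:69352883-69353062, minus strand): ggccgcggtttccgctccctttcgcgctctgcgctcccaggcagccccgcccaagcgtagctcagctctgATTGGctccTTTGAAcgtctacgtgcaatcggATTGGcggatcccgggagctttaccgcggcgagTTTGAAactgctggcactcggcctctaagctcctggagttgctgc
Plk1 (chr7:122159285-122159464, plus strand): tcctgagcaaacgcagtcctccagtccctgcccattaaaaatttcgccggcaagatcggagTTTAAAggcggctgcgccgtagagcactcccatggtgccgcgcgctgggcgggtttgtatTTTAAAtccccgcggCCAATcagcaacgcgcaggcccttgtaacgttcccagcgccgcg
Cdc20 (chr4:118437314-118437493, minus strand): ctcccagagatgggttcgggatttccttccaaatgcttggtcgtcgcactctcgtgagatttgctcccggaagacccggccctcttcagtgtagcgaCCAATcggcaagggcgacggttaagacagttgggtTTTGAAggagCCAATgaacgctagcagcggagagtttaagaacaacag
Pttg1 (chr11:43425952-43426131, minus strand): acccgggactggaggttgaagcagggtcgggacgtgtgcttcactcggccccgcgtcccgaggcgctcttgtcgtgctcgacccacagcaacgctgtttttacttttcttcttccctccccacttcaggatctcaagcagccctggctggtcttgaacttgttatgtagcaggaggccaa

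Cyclin B1 had CCAAT boxes starting 99 and 67 bases before the start, 32 bases apart, and TTTAAA at 42 bases before it. In the cyclin B2 promoter 3 CCAAT boxes followed each other at intervals of 33 bases, and TTTGAA began 5 bases after the start, with another 167 bases before it, outside the stretch shown. Cdk1 held 2 CCAAT boxes 32 bases apart, with TTTGAA at 71 and 15 bases before the start, and a further box lay at 208, outside the stretch shown. Plk1 had 1 CCAAT box at 14 bases before the start, TTTAAA at 89 and 29 bases before it, and a TTTGAA at 31 bases after the start, just past the stretch shown. Cdc20 carried TTTGAA 18 bases before the start, with CCAAT boxes at 53 and 8. None of the letters searched occurred in the Pttg1 window.

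Over all windows of the 44 genes, TTTGAA occurred in 29 of 39 (74.4%), against 17.9% of all 32851 promoter windows of the same length. TTTAAA occurred in 9 of 39 (23.1%, against 13.2%) and CCAAT in 29 of 39 (74.4%, against 37.4%). A CCAAT box together with either CHR form was found in 27 of 39 (69.2%), against 10.7% of all windows. Among windows with at least 2 CCAAT boxes, neighbours lay 31 to 34 bases apart in 9 of 19 (47.4%), against 9.79% of 3842. The range of 31 to 34 bases was not among the counts planned beforehand. It holds the spacings of 32 and 33 bases given above for Ccnb1, Ccnb2 and Cdk1, whose windows are among the 9. The contrast was not tested. Among the 37 genes, the 25 with both elements had a median log2 fold change of 0.65 (0.33 to 1.14), the 5 with a CHR form only 0.65, the 2 with CCAAT only 0.55, and the 5 with neither (Mad2l1, Mybl2, Nuf2, Nusap1 and Pttg1) 0.50 (-0.09 to 0.53). These medians are a description of genes that share libraries and were not tested. A match is not evidence of binding, and its absence says only that the letters are not in the window.

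**Figure D2:**
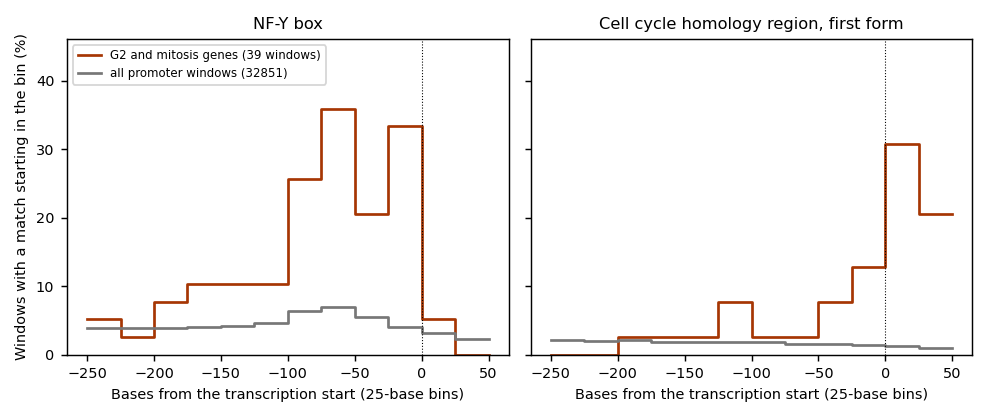
Share of promoter windows (%) with a match that starts in each 25-base bin, against distance from the transcription start in bases, for the CCAAT box bound by NF-Y (left) and TTTGAA (right). The brown line is the 39 windows of G2 and mitosis genes, the grey line all 32851 windows. In the brown line CCAAT boxes peak 75 to 50 bases before the start, in 35.9% of windows, and TTTGAA in the first 25 bases after it, in 30.8%.

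The genes that commit a cell to mitosis are cyclins A2, B1 and B2, Cdk1 and the Cdc25 phosphatases. All 6 had log2 fold changes above 0 (median 0.65), and their summed level was 249.6 ± 52.7 CPM for controls and 395 ± 95.9 CPM for knockouts (SD, n = 3 each). Ccnb1, the main partner of Cdk1 at mitotic entry, stood at 35.3, 44.04 and 55.9 CPM in the controls, against 51.3, 86.7 and 97.6 CPM in the knockouts. Its 2 highest values were those of cKO replicates 2 and 3, and cKO replicate 1 lay between the controls (a log2 fold change of 0.80, SE 0.255, adjusted p 0.160 by edgeR). Cdk1, the catalytic subunit, had 33.4, 46.7 and 66.0 CPM in the controls, against 50.2, 88.7 and 111 CPM in the knockouts. Here too cKO replicate 1 lay inside the control range (a log2 fold change of 0.78, SE 0.334). Ccnb2, a second B-type cyclin found at the Golgi and the centrosome, had 24.2, 32.8 and 38.0 CPM in the controls, against 38.8, 52.6 and 47.0 CPM in the knockouts, and every cKO library exceeded every control, by less than 1 CPM in the closest pair. Cdc25b, the phosphatase that starts Cdk1 activation at the centrosome, had 57.1, 61.9 and 68.3 CPM in the controls, against 78.8, 124 and 89.4 CPM in the knockouts. Its groups did not overlap either (a log2 fold change of 0.64, SE 0.187, adjusted p 0.130 by edgeR). Cdc25c, which amplifies Cdk1 activity at entry, had a value of 0.66 (SE 0.259) on the log2 scale, and its cKO libraries all exceeded the controls. Ccna2, a cyclin of both S phase and G2, had the lowest log2 fold change of the role at 0.51 (SE 0.233), and its groups overlapped. The Ccnb1 to Ccna2 ratio was 0.938, 0.892 and 0.988 in controls and 1.084, 1.205 and 1.147 in cKO libraries. That ratio did not overlap between the groups. Of 4 ratios between members computed, the other 3 overlapped. Plk1 to Cdk1 was 0.560, 0.570 and 0.422 in controls and 0.690, 0.810 and 0.487 in cKO libraries. Foxm1 to Mybl2 ran from 1.11 to 1.44 against 1.22 to 1.48, and Cdc25b to Cdc25c from 3.88 to 6.04 against 3.41 to 5.82. The pairs were chosen with earlier results of these genes known, and no ratio was tested.

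Mitotic kinases and the chromosomal passenger complex had the highest median of the 8 roles, 0.85 over 6 genes, with sums of 190.3 ± 47.5 CPM for controls and 344 ± 110 CPM for knockouts. Plk1, the Polo kinase that drives centrosome maturation and mitotic entry, stood at 18.7, 26.6 and 27.9 CPM in the controls, against 34.7, 71.8 and 54.2 CPM in the knockouts. All cKO values lay above all controls, and its log2 fold change of 1.14 (SE 0.271) was the highest of the 44 and the only one past 2-fold (adjusted p 0.0889 by edgeR). Aurka, the Aurora kinase of centrosomes and spindle poles, had 13.6, 18.2 and 21.5 CPM in the controls, against 23.3, 41.1 and 36.2 CPM in the knockouts. The groups were again apart (a log2 fold change of 0.91, SE 0.255, adjusted p 0.120 by edgeR). Incenp, the scaffold of the passenger complex, had 43.6, 54.6 and 62.4 CPM in the controls, against 63.5, 113 and 115 CPM in the knockouts. The lowest cKO value exceeded the highest control by about 1 CPM (a log2 fold change of 0.86, SE 0.239, adjusted p 0.120 by edgeR). Aurkb, the kinase of the complex, had 19.4, 27.0 and 33.2 CPM in the controls, against 25.03, 57.8 and 51.2 CPM in the knockouts. Cdca8 (borealin), which targets the complex to centromeres, had 25.9, 37.4 and 44.2 CPM in the controls, against 41.2, 87.5 and 63.6 CPM in the knockouts. Birc5 (survivin), another targeting subunit, had 19.9, 30.4 and 46.6 CPM in the controls, against 32.4, 58.6 and 61.1 CPM in the knockouts. In all 3 of these genes cKO replicate 1 stood inside the control range, and their log2 fold changes were 0.75 (SE 0.317), 0.84 (SE 0.289) and 0.65 (SE 0.343).

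Kinetochore and checkpoint genes had the lowest median of the 8 roles, 0.53, though all 11 were above 0. Summed, they stood at 252 ± 53.9 CPM for controls and 369 ± 73.8 CPM for knockouts. Cenpa, the histone H3 variant that marks centromeres, had 33.3, 52.7 and 77.4 CPM in the controls, against 66.8, 105 and 78.0 CPM in the knockouts. Control replicate 3 nearly equalled cKO replicate 3 and lay above cKO replicate 1, through which the groups overlapped (a log2 fold change of 0.61, SE 0.299). Cenpf, a large kinetochore and nuclear matrix protein, had 31.2, 45.2 and 42.9 CPM in the controls, against 45.5, 62.6 and 76.8 CPM in the knockouts. Cenpe, the kinesin that carries chromosomes to the spindle equator, had 19.99, 25.8 and 25.1 CPM in the controls, against 27.3, 31.4 and 43.8 CPM in the knockouts. Both were apart between the groups, cKO replicate 1 by a small margin (log2 fold changes of 0.63, SE 0.222 and 0.53, SE 0.217). In the Ndc80 complex, which grips microtubule ends, Ndc80 had 8.88, 10.1 and 12.8 CPM in the controls, against 13.2, 14.996 and 21.7 CPM in the knockouts and did not overlap. Its partners Nuf2 (0.50, SE 0.223) and Spc25 (0.51, SE 0.259) had lower log2 fold changes, and in both cKO replicate 1 was inside the control range. Knl1, the platform for checkpoint proteins, had a log2 fold change of 0.59 (SE 0.271), with the lowest cKO library above the highest control by a narrow margin.

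The 2 lowest log2 fold changes above 0 were those of the checkpoint genes Mad2l1 and Ttk. Bub1b (BubR1), part of the inhibitor of Cdc20, had 32.2, 40.2 and 47.0 CPM in the controls, against 43.9, 68.9 and 64.2 CPM in the knockouts. Bub1, the kinetochore kinase that recruits it, had a log2 fold change of 0.47 (SE 0.255). Ttk (Mps1), the kinase that starts checkpoint signaling, stood at 6.73, 10.7 and 7.26 CPM in the controls, against 8.46, 10.4 and 12.1 CPM in the knockouts. Control replicate 2 exceeded 2 of its 3 cKO libraries, and the log2 fold change of 0.33 (SE 0.269) was little more than its error. Mad2l1, the Cdc20 inhibitor itself, had 19.8, 22.5 and 26.5 CPM in the controls, against 20.1, 30.1 and 35.3 CPM in the knockouts. Its cKO replicate 1 was nearly level with the lowest control (a log2 fold change of 0.31, SE 0.234).

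Spindle motors and microtubule proteins were the 1 role whose summed level did not overlap between groups: 128, 183 and 184 CPM for controls and 198, 283 and 314 CPM for knockouts. Kif2c, a kinesin that takes microtubules apart at centromeres to correct wrong attachments, had the lowest p of the 44. Its libraries gave 14.9, 19.8 and 17.8 CPM in the controls, against 29.2, 37.6 and 31.7 CPM in the knockouts. All cKO libraries were well above the controls, cKO replicate 1 included (a log2 fold change of 0.91, SE 0.194, adjusted p 0.0722 by edgeR). Kif11 (Eg5), the motor that pushes spindle poles apart, had 28.3, 44.8 and 41.6 CPM in the controls, against 45.9, 65.1 and 87.6 CPM in the knockouts. Tpx2, which activates Aurora A and nucleates spindle microtubules, had 34.3, 53.3 and 48.6 CPM in the controls, against 54.2, 80.1 and 74.2 CPM in the knockouts. In both genes cKO replicate 1 was only just above the highest control (log2 fold changes of 0.79, SE 0.256 and 0.61, SE 0.211). Hmmr, a spindle pole protein, had 11.7, 17.2 and 17.5 CPM in the controls, against 21.6, 22.7 and 26.3 CPM in the knockouts. Its cKO libraries all exceeded the controls and lay close together (a log2 fold change of 0.61, SE 0.217). The chromosome-arm kinesin Kif4 (0.66, SE 0.271) and the microtubule bundler Nusap1 (0.53, SE 0.271) overlapped between groups.

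**Figure D3:**
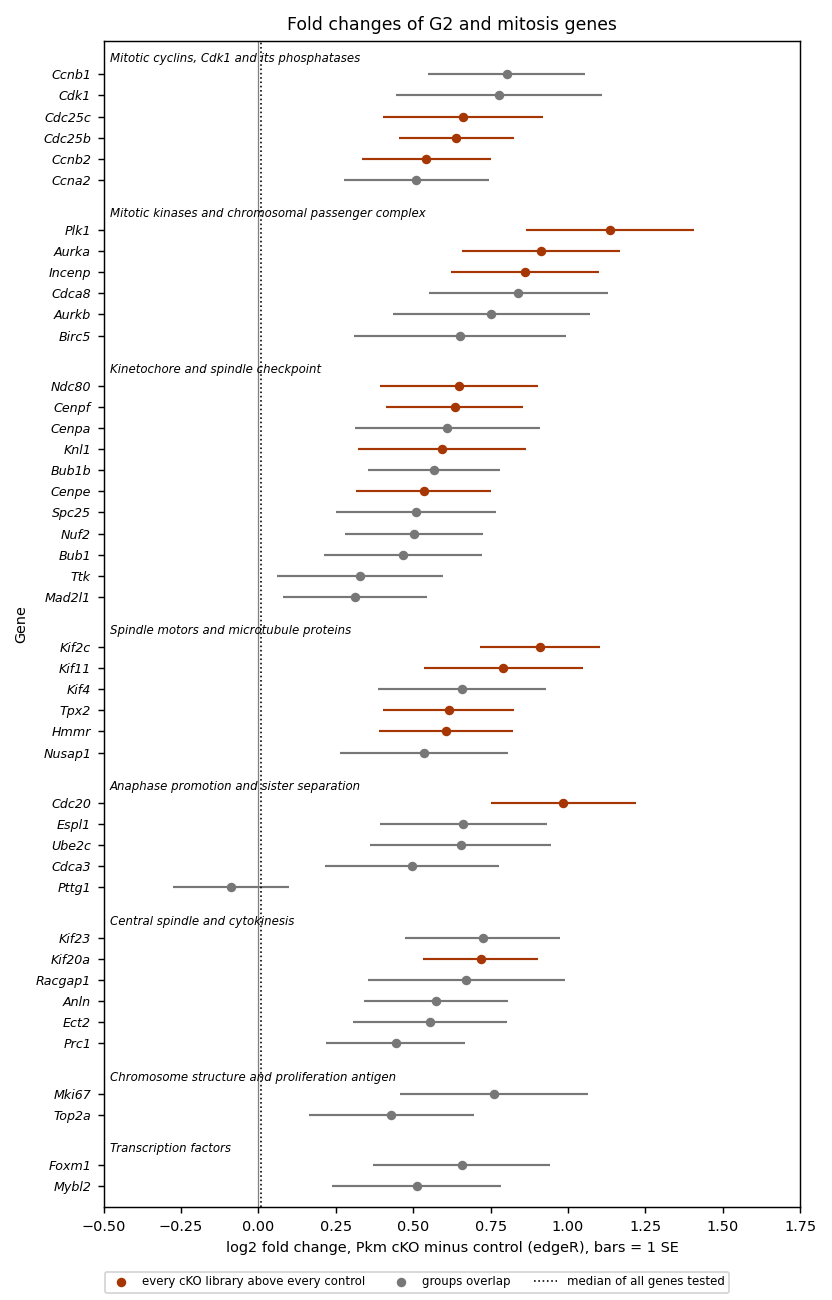
Log2 fold change (Pkm cKO minus control, edgeR) of each of the 44 genes, by role, with bars of 1 SE. Brown marks the 16 genes for which every cKO library exceeded every control, grey the 28 with overlap, and the dotted line the median of all tested genes. All but Pttg1 lie to the right of 0, from 0.31 (Mad2l1) to 1.14 (Plk1).

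Genes of anaphase included both Cdc20, near the top of the 44, and Pttg1, at the bottom. Cdc20, the activator of the anaphase-promoting complex that the checkpoint restrains, had 36.0, 50.4 and 60.4 CPM in the controls, against 71.5, 118 and 101 CPM in the knockouts. All cKO libraries exceeded all controls (a log2 fold change of 0.98, SE 0.234, adjusted p 0.0889 by edgeR). Ube2c, the ubiquitin-conjugating enzyme of the same complex, had 26.1, 43.3 and 47.0 CPM in the controls, against 41.0, 83.2 and 58.8 CPM in the knockouts, and overlapped in cKO replicate 1 (a log2 fold change of 0.65, SE 0.293). Espl1 (separase), the protease that cuts cohesin, had 16.2, 22.2 and 19.95 CPM in the controls, against 18.8, 39.1 and 34.4 CPM in the knockouts (a log2 fold change of 0.66, SE 0.271). Pttg1 (securin), which binds and restrains separase, had 18.1, 16.5 and 20.1 CPM in the controls, against 18.3, 17.2 and 15.9 CPM in the knockouts. Its highest value was a control and its lowest was cKO replicate 3, which held for no other member (a log2 fold change of -0.09, SE 0.188, adjusted p 0.846 by edgeR). Cdca3, counted in this role and its sums, is a factor that promotes mitotic entry. It had 34.9, 41.5 and 70.3 CPM in the controls, against 49.97, 80.2 and 76.6 CPM in the knockouts. Control replicate 3 lay above cKO replicate 1, and the groups overlapped (a log2 fold change of 0.50, SE 0.282).

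For the central spindle and cytokinesis the median was 0.62 over 6 genes. Kif20a, a kinesin that carries the passenger complex to the central spindle, had 27.9, 33.9 and 38.4 CPM in the controls, against 45.4, 60.1 and 59.1 CPM in the knockouts, and was the only gene of this role without overlap (a log2 fold change of 0.72, SE 0.187, adjusted p 0.105 by edgeR). In RefSeq its locus overlaps Cdc23 and Brd8, and since no source used here gives the strand setting of the counts, reads of the overlapping stretches cannot be told apart. Cdc23 had a log2 fold change of 0.04, and Brd8 one of 0.38. Racgap1 and Kif23 form centralspindlin, which positions the cleavage furrow. Racgap1 had 41.3, 62.4 and 79.2 CPM in the controls, against 58.3, 113 and 119.6 CPM in the knockouts, and Kif23 had 23.3, 29.98 and 34.6 CPM in the controls, against 33.4, 47.7 and 64.3 CPM in the knockouts. In both, cKO replicates 2 and 3 were above every control and cKO replicate 1 was not (log2 fold changes of 0.67, SE 0.318 and 0.73, SE 0.2505). Ect2, the exchange factor that activates RhoA at the furrow (0.55, SE 0.249), Anln, the ring scaffold anillin (0.57, SE 0.233), and Prc1, the bundler of the central spindle (0.44, SE 0.224), completed the role. Each of these 3 overlapped only through cKO replicate 1, and Prc1 shares its locus with Rccd1, whose log2 fold change was -0.50. The other loci that overlap a protein-coding gene in RefSeq are those of Ccna2, Aurka, Nusap1, Cdc20, Anln and Foxm1, so their levels carry the same uncertainty. Kif4 and Ect2 overlap long noncoding RNA genes, and Cdc25c, Incenp, Kif11, Nusap1 and Ect2 overlap pseudogenes. Pseudogene copies are annotated for Ccnb1, Ccnb2 and Kif4, and how reads that match more than 1 copy were counted was not given.

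Mki67, the proliferation antigen Ki-67 that coats mitotic chromosomes, had 151, 205 and 231 CPM in the controls, against 206, 303 and 486 CPM in the knockouts. Pkm cKO replicate 3 had the highest value by far, and cKO replicate 1 was inside the control range (a log2 fold change of 0.76, SE 0.304). Top2a, the topoisomerase that untangles sister chromatids, had 105, 149 and 133 CPM in the controls, against 103, 199 and 218 CPM in the knockouts. It was the 1 gene whose lowest value of all 6 libraries was cKO replicate 1 (a log2 fold change of 0.43, SE 0.267). The 2 transcription factors of the program showed the same split among cKO libraries. Foxm1, which activates G2 and mitosis genes, had 34.1, 45.6 and 54.0 CPM in the controls, against 41.7, 89.5 and 79.6 CPM in the knockouts (a log2 fold change of 0.66, SE 0.285). Mybl2 (B-Myb), its partner at CHR promoters, had 30.8, 31.7 and 47.7 CPM in the controls, against 34.1, 69.3 and 53.7 CPM in the knockouts (a log2 fold change of 0.51, SE 0.273). For both, cKO replicate 2 was the highest library and cKO replicate 1 lay within the controls.

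Which cKO library was highest differed by role. Pkm cKO replicate 2 was the highest of all libraries for 19 genes and replicate 3 for 24, with control replicate 3 highest for Pttg1. Kinases and passenger genes summed to 430.01 CPM in cKO replicate 2 and 381 CPM in replicate 3, and anaphase genes to 338 and 287 CPM. The order was the other way for kinetochore genes, with 399 and 423 CPM, and for Mki67 and Top2a together, with 502 and 704 CPM. These differences between single libraries have no replicate check.

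The pathway beyond the 44 genes was read from 7 further lists with 111 tested genes. None of them passed the threshold over all genes, beside 0.552% of all tested genes called in either direction, and 27 were higher and 2 lower at an unadjusted p under 0.05, where 9.57% of all tested genes were higher. All 18 other entry and exit regulators were above 0 (median 0.42). Gtse1, a microtubule-bound regulator of G2, had 11.1, 13.0 and 13.8 CPM in the controls, against 16.7, 30.5 and 26.4 CPM in the knockouts, and Ccnf, the F-box cyclin that marks substrates for degradation, had 13.7, 16.2 and 19.9 CPM in the controls, against 22.6, 32.6 and 36.2 CPM in the knockouts. Neither overlapped between groups, and nor did Nek2, a centrosome kinase (log2 fold changes of 0.96, SE 0.247, 0.88, SE 0.233 and 0.82, SE 0.243). Of 20 other spindle and centrosome genes, 18 were above 0 (median 0.63). Kif22, a chromosome-arm kinesin, had 23.7, 31.4 and 34.2 CPM in the controls, against 46.9, 80.9 and 60.3 CPM in the knockouts and the lowest p of all 7 lists (a log2 fold change of 1.08, SE 0.228, adjusted p 0.0720 by edgeR). Tacc3, a spindle-stabilizing protein, and Kifc1, a minus-end kinesin, had log2 fold changes of 0.91 (SE 0.226) and 1.06 (SE 0.293). Of 26 other kinetochore genes, 24 were above 0 (median 0.45), among them Spdl1, which recruits dynein to kinetochores (0.74, SE 0.299), and Cenph, a subunit of the inner kinetochore (0.64, SE 0.261). The 8 other cytokinesis genes had a median of 0.20, with Cit, a midbody kinase, at 0.78 (SE 0.270), Depdc1b at 1.00 (SE 0.445) and Arhgap11a at 0.68 (SE 0.328).

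The lists of the anaphase-promoting complex and of DREAM had medians close to 0. Both complexes also work outside mitosis, in cells that have left the cycle. Whether that bears on their levels here was not tested. The 15 genes of the anaphase-promoting complex, 14 subunits and the chain-extending enzyme Ube2s, had a median of 0.04, with 9 above 0 and 6 below. The activator Cdc20 and the enzyme Ube2c, members of the 44, had 0.98 and 0.65. Anapc13, a small scaffold subunit, stood at 40.5, 40.2 and 40.7 CPM in the controls, against 24.2, 24.9 and 26.9 CPM in the knockouts. The cKO libraries were all lower and close together (a log2 fold change of -0.67, SE 0.156, adjusted p 0.0847 by edgeR). Anapc7 and Anapc15 had log2 fold changes of 0.24 (SE 0.153) and -0.27 (SE 0.184). The 11 genes of DREAM and MuvB had a median of 0.02, with E2f4 at 0.20 (SE 0.155), Rbl2 at -0.19 (SE 0.155) and E2f5 at -0.23 (SE 0.231). In the condensin and cohesin list (13 genes, median 0.17) the condensin I subunits Ncapd2 (0.69, SE 0.203) and Ncaph (0.69, SE 0.216) were above 0 without overlap, and the cohesin subunit Stag2 (-0.61, SE 0.198) was below it without overlap. The sign of the medians of these 3 lists turned when single libraries were left out. No difference between the lists was tested.

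**Figure D4:**
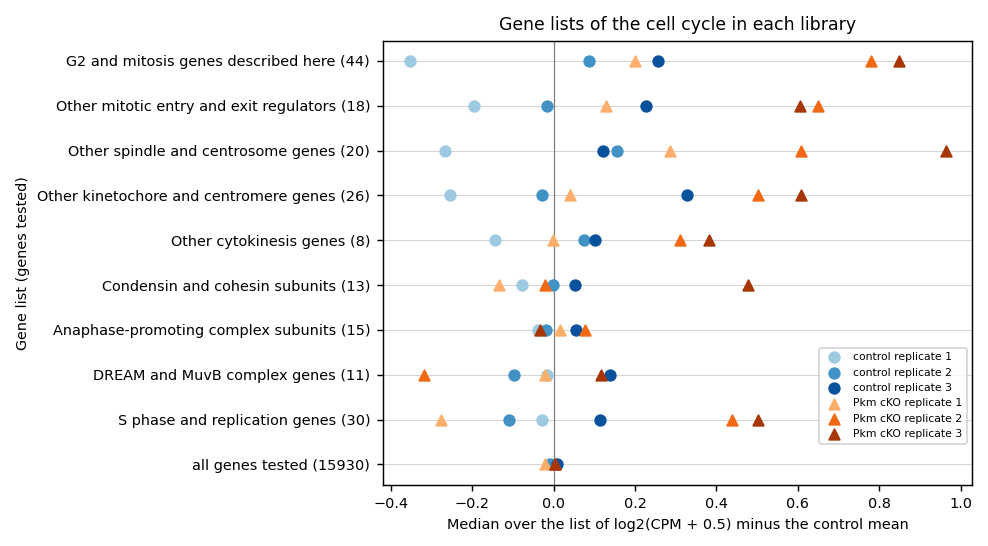
Each row is a gene list, with the number of genes tested, and each symbol is the median over the list in 1 library of log2(CPM + 0.5) minus the control mean (circles, controls; triangles, Pkm cKO). In Pkm cKO replicates 2 and 3 the 44 genes stand at 0.78 and 0.85 and in replicate 1 at 0.20, while subunits of the anaphase-promoting complex stay between -0.04 and 0.08 in all 6 libraries.

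S phase was compared because replication comes before G2. The 30 replication genes, led by p by Mcm7 (0.74, SE 0.188), E2f1 (0.78, SE 0.257) and Ccne1 (0.72, SE 0.335), were above 0 for 26, with a median of 0.26. They summed to 860, 818 and 980.1 CPM for controls and to 713, 1325 and 1347 CPM for knockouts, so Pkm cKO replicate 1 had the lowest S phase sum of all 6 libraries while its G2 and mitosis sum was inside the control range. The ratio of the G2 and mitosis sum to the S phase sum was 1.47, 2.10 and 1.97 in controls and 2.51, 2.18 and 2.28 in cKO libraries. Every cKO ratio exceeded every control ratio, with cKO replicate 1 the highest. The lists were drawn up with earlier results known, so no test was made of this ratio.

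**Figure D5:**
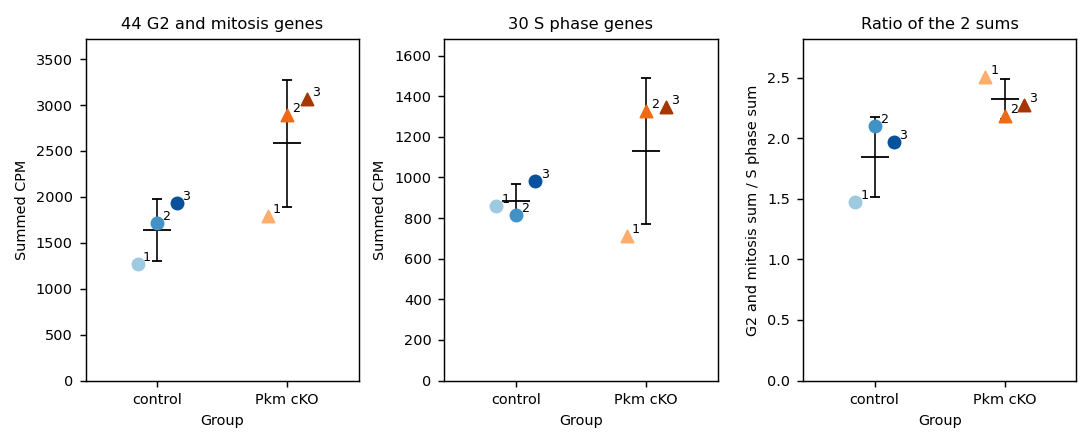
Summed CPM of the 44 G2 and mitosis genes (left) and of 30 S phase genes (middle), and their ratio (right), in each library, labelled by replicate number (circles, controls; triangles, Pkm cKO; bars, mean and SD, n = 3). Pkm cKO replicate 1 is within the control range on the left, lowest in the middle at 713 CPM and highest on the right at 2.51.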

How the data were processed

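The values are raw read counts for each gene, in whole numbers, as the authors deposited them in 1 table of 6 libraries. The submitters' processing notes name fastp, HISAT2 and build mm39. How reads were counted, with which strand setting, annotation and versions, was not given in the sources used here. Groups came from the sample titles. Nothing says whether libraries came from separate litters, so p-values cover only the spread among these samples.

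Genes were kept by edgeR's filterByExpr, scaled by TMM and tested with the quasi-likelihood F test of edgeR (robust glmQLFit; edgeR 4.0.16, R 4.3.3), two-sided, with Benjamini-Hochberg adjustment over 15930 genes and a threshold of 0.05. An SE was taken as the log2 fold change over the root of its F statistic. Members, roles and lists were chosen with earlier results of these data known, so lists got no test. Values per library are given for the 10 members with the lowest p, the most abundant member of each role, Foxm1 and Mybl2, and for others added after values were seen. From the other lists, up to 3 genes among those with the lowest p are named, and 1 result is not reported here. The 14 alternatives were other scalings and filters, DESeq2 1.42.0, limma-voom (limma 3.58.1), no robust estimation, a replicate block and each library left out. Fits were tested on simulated counts. Duplicate libraries were checked for, and the lowest chi-square per gene between 2 libraries was 28.2. Promoter motifs were searched on both strands in RefSeq windows of GRCm38.p6, a build other than that of the counts.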

Additional observations from a re-analysis of the deposited data

How the results depend on the processing

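In each of the 14 alternatives 43 of the 44 genes were above 0. Their median stayed within 0.44 to 0.77 when single libraries were left out. The number of the 44 called was 0 with the settings used above and in 10 alternatives. It was 6 without the count filter, 8 with DESeq2 and 0 to 13 when single libraries were left out, 13 being without Pkm cKO replicate 1. Replicate numbers are shared between the groups in the labels, which do not say that a number marks a pair, so the numbers were not taken as pairs. Deviations from the group mean had r over genes of 0.23, 0.01 and 0.22 for same-numbered libraries. For differently numbered ones r ran from -0.28 to 0.07. Over the 44 genes the median deviations from the group mean had the same sign within each number (log2 -0.36 and -0.45, 0.09 and 0.20, 0.26 and 0.25 for control and cKO). Deviations are centred within each group and the 44 genes vary together among libraries. Neither the r over genes nor the equal signs can therefore decide whether the numbers mark pairs. With the replicate block 708 genes, or 4.44% of all tested genes, were called in either direction. They included 13 of the 44 and 13 of the other mitotic (111) and S phase (30) genes. In the 4 alternatives with calls among the 44, 6 were called each time: Plk1, Aurka, Incenp, Kif2c, Cdc20 and Kif20a. The other mitotic (111) and S phase (30) genes had 0 calls with the settings used above. In either direction they had 7 calls without the filter, against 2.08% of all genes, and 13 with DESeq2, against 7.02%. With single libraries left out they had 0 to 14 calls, against 0% to 3.92% of all genes. Over all genes the 88 calls became 55 with DESeq2 size factors, 518 without the filter, 1118 with DESeq2, 2 with limma-voom, 2 without robust estimation and 0 to 640 with single libraries left out. Without control replicate 1, 2 or 3, where 0 genes were called, the numbers of genes with an unadjusted p under 0.05 by edgeR were 1532, 1766 and 2495. Pkm stood at -1.82 to -1.66 with single libraries left out, and did not pass without a control. In a shorter promoter window, from 150 bases before the start, TTTAAA went from 9 to 6 windows, and TTTGAA (29) and CCAAT (29) did not change. Limits are the 3 libraries a group, the shifts in markers of other cells and the strand setting, which no source used here gives.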
